A study of Homo sapiens with 4 samples.

Results

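The clustered protocadherins are cell surface adhesion proteins of the cadherin superfamily, and their genes form 3 neighbouring rows on chromosome 5, named PCDHA, PCDHB and PCDHG. The members described here were every gene on chromosome 5 whose symbol is PCDHA, PCDHB, PCDHGA, PCDHGB or PCDHGC followed by its number or letter code, 59 of the 63856 genes in the count table. PCDHA held 16 of them, PCDHB 19 and PCDHG 24. Of the 59 members, 36 had enough counts to be tested and 23 did not.

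RNA-seq was performed on MCF10A, a non-tumorigenic human mammary epithelial cell line, in 4 libraries. The 2 wild type (WT) libraries came from unmodified cells, and the 2 HSF1-pLVX libraries came from cells transduced with a lentivirus carrying the HSF1 gene in the pLVX-Puro vector and kept under puromycin as a stable population. HSF1 is the transcription factor that switches on heat shock genes. All cells grew in DMEM/F12 with horse serum, insulin, hydrocortisone, EGF and cholera toxin. No library with an empty vector was analysed here, so the introduced HSF1 cannot be told apart from the vector, the selection or the separate culture of the line.

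In neurons, each clustered protocadherin gene has its own promoter and a large variable exon that codes for the extracellular cadherin repeats, the transmembrane stretch and part of the cytoplasmic tail. In PCDHA and PCDHG the variable exon is spliced to constant exons shared by the whole cluster, whereas PCDHB genes have no constant exons. Neurons are known to switch on different subsets of the alpha, beta and gamma promoters from cell to cell, which gives neighbouring cells different surface codes, while the C-type genes at the end of PCDHA and PCDHG follow more uniform rules. Promoter choice is known to depend on CTCF, cohesin and DNA methylation, and a short conserved element with the core CGCT lies just before the start of most of these genes.

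The exon maps followed this arrangement. All 15 coding members of PCDHA contained the same 2866 exon bases, which fell in 3 stretches between 140978949 and 141012344 on chromosome 5 (hg38), and all 22 coding members of PCDHG contained the same 2181 bases, in 3 stretches between 141494807 and 141512979. No exon base was common to the 16 coding members of PCDHB. Coding members with 0 counts in a library occurred in both clusters, so reads from the constant exons were not counted to every gene that contains them, and how they were assigned is not given in the sources used here. Neighbouring variable exons are also similar in sequence, so reads could be split between members and the values of single members are uncertain to that extent.

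Promoter windows from 250 bases before to 50 bases after the RefSeq start (GRCh38.p14) were found for 47 of the 59 members. The letters CGCT stood on the gene strand 30 to 90 bases before the start in 42 of these 47 windows (89.4%), against 19.1% of all 34943 promoter windows. The longer word GGTGGCGCT stood on the gene strand in 13 of 14 PCDHB windows, and in 0 of 13 PCDHA and 0 of 20 PCDHG windows. It contains a CGCT, so these matches overlap. The following 60-base stretches belong to members whose values are given below and show how the letters around CGCT differ between clusters. Only these letters were matched, so a CGCT shown here need not belong to the conserved element. The capitals mark CGCT, and where several copies stood 30 to 90 bases before the start, the copy farthest from the start is shown. All are on the plus strand of chromosome 5, written 5′ to 3′.
PCDHA6, chr5:140827885-140827944: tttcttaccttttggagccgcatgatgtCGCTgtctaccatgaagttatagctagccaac
PCDHA11, chr5:140868871-140868930: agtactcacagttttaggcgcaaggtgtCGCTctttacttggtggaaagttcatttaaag
PCDHA12, chr5:140875232-140875291: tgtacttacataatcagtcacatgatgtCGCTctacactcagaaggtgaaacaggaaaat
PCDHAC1, chr5:140926208-140926267: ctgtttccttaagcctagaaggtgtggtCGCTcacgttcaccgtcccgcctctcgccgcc
PCDHAC2, chr5:140966407-140966466: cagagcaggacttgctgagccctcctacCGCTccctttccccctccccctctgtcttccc
PCDHB2, chr5:141094532-141094591: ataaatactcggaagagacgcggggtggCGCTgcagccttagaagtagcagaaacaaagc
PCDHB16, chr5:141182298-141182357: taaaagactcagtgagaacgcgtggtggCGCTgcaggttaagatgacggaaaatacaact
PCDHB14, chr5:141223251-141223310: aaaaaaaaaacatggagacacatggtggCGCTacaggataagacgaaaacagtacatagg
PCDHGA2, chr5:141338691-141338750: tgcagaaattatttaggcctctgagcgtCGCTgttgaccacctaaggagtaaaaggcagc
PCDHGB5, chr5:141397851-141397910: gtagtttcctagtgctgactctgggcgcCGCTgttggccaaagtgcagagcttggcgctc
PCDHGA9, chr5:141402702-141402761: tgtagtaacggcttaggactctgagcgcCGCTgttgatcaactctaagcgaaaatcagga
PCDHGC3, chr5:141475868-141475927: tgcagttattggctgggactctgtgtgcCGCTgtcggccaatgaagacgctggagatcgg
PCDHGC4, chr5:141484940-141484999: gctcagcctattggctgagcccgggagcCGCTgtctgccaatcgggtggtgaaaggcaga

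The 4 libraries held between 18688109 and 24184285 counts. Levels are given as CPM, the count per 1000000 counts of the TMM-scaled library total, and the 4 values of a member follow the order WT replicate 1, WT replicate 2, HSF1-pLVX replicate 1 and HSF1-pLVX replicate 2. HSF1 itself stood at 200.4, 189.2, 982.4 and 998.6 CPM, a log2 fold change of 2.35 (SE, the standard error, 0.095, adjusted p = 1.14e-10, edgeR's quasi-likelihood test), so both HSF1-pLVX libraries matched their label. Vector-derived and endogenous HSF1 reads cannot be told apart in these counts. Over all tested genes, 33.2% were lower and 32.7% higher at an adjusted p of 0.05. Of the mammary epithelial markers, all 10 were expressed in every library and all 10 were called, 6 lower and 4 higher. KRT14 (542.3, 518.0, 46.8 and 43.4 CPM), TP63 (10.39, 8.988, 105.8 and 109.9 CPM), KRT8 (3158, 3173, 382.9 and 287.9 CPM) and KRT17 (7223, 7165, 1183 and 1256 CPM) changed most. KRT5 (2138, 2088, 4293 and 4890 CPM) was higher and CDH1 (845.7, 862.6, 333.1 and 302.3 CPM) lower. PTPRC, which defines immune cells, was at 0 in all libraries, and the endothelial markers summed to between 0.269 and 1.21 CPM. The neural list, whose cells are the usual source of clustered protocadherins, summed to 129.4, 140.9, 15.1 and 9.31 CPM, nearly all of it MAP2, with STMN2 and OLIG2 at 0. The fibroblast list summed to 7.62, 10.8, 14.5 and 13.7 CPM, with DCN higher in HSF1-pLVX cells and LUM at 0 to 0.0503 CPM. Whether these shifts take part in the protocadherin values was not tested.

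Most of the measurable clustered protocadherins were lower in HSF1-pLVX cells. Of the 36 tested members, 27 were lower at an adjusted p of 0.05, PCDHGB7 alone was higher, and 8 were not called. Among all 15830 tested genes, 33.2% were lower and 32.7% were higher. At least 2-fold lower were 25 members, against 14.0% of all tested genes, and 1 member was at least 2-fold higher, against 14.9%. Both HSF1-pLVX libraries lay below both WT libraries for 29 tested members, against 41.0% of all tested genes, and above both for 2 members, against 42.1%. The median log2 fold change of the tested members was -1.6, with a range from -3.92 to 1.37, while that of all tested genes was 0.02. In bulk RNA, fewer cells that express a member and less of its RNA per cell cannot be told apart. The study's methods call the libraries biological replicates, without saying how the cultures were kept apart. The p-values set the difference between the groups against the spread within them, which edgeR estimates partly from the other tested genes.

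**Figure D1:**
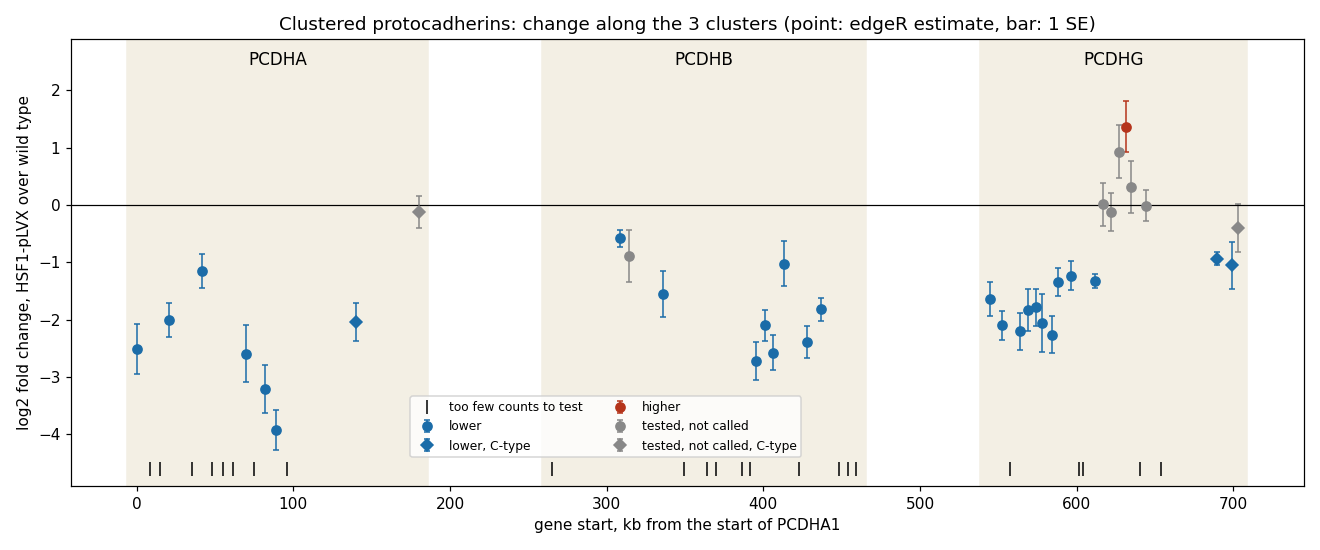
Log2 fold change of HSF1-pLVX over WT for the 36 tested members (vertical axis; points are edgeR estimates, bars 1 SE) against the start of each gene in kb from the start of PCDHA1 (horizontal axis). Diamonds are C-type members and black ticks the 23 members with too few counts to test. All 7 PCDHA points apart from PCDHAC2 lie between -3.92 and -1.15, the PCDHB points between -2.72 and -0.58, and the PCDHG points change level between PCDHGB5 at -1.32 and PCDHGA9 at 0.01.

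Summed over its members, every cluster was lower in HSF1-pLVX cells. PCDHA summed to 26.6, 22.6, 6.41 and 6.34 CPM, PCDHB to 45.0, 45.7, 16.1 and 15.2 CPM and PCDHG to 79.0, 78.5, 35.9 and 34.9 CPM. Both HSF1-pLVX libraries lay far below both WT libraries in each cluster. The HSF1-pLVX mean was 25.96% of the WT mean for PCDHA (log2 ratio -1.95), 34.5% for PCDHB (-1.54) and 44.9% for PCDHG (-1.15). All 59 members together stood at 148.7 ± 2.71 CPM (SD, n = 2) in WT and 57.4 ± 1.45 CPM (SD, n = 2) in HSF1-pLVX cells, or 38.6% of the WT level. With 2 libraries against 2, the two-sided exact permutation test of a sum or a share cannot give a p below 0.33, and it gave 0.333 for each of these sums.

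PCDHA had 8 tested members, and 7 of them were lower. PCDHA12, an alpha member with its own variable exon near the end of the alpha row, was counted 160, 119, 15 and 7 times (8.52, 6.41, 0.598 and 0.352 CPM). The WT and HSF1-pLVX libraries were far apart, and the log2 fold change was -3.92 (SE 0.352, adjusted p = 3.70e-08), the largest fall among all tested members. PCDHA11, its upstream neighbour among the tested members, went from 51 and 51 counts to 6 and 7, a log2 fold change of -3.21 (SE 0.413, adjusted p = 1.89e-06).

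PCDHA10 had 21, 25, 5 and 4 counts and PCDHA1, the first gene of the row, had 31, 27, 6 and 6. Neither gene's groups overlapped, and their log2 fold changes were -2.59 (SE 0.494) and -2.51 (SE 0.439). PCDHA4 had 61, 57, 19 and 16 counts and a log2 fold change of -2.01 (SE 0.296, adjusted p = 2.21e-05). PCDHA6 changed least among the called alpha members, with 62, 43, 34 and 23 counts and a log2 fold change of -1.15 (SE 0.291, adjusted p = 0.00280). Its call was lost without HSF1-pLVX replicate 2 (log2 fold change -1.04, adjusted p = 0.0824).

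The C-type members of PCDHA parted. PCDHAC1 had 53, 43, 18 and 10 counts, with both HSF1-pLVX libraries below both WT libraries, and a log2 fold change of -2.04 (SE 0.337, adjusted p = 5.90e-05), within the range of the other alpha genes. PCDHAC2, whose variable exon starts 39.9 kb further on, had 45, 31, 47 and 37 counts, or 2.40, 1.67, 1.87 and 1.86 CPM. Its groups overlapped and its log2 fold change of -0.12 (SE 0.280) did not pass the test (adjusted p = 0.716). In the stretches printed above, the CGCT of PCDHAC1, PCDHA11 and PCDHA12 stands in gtCGCTc. That of PCDHA6, which was also lower, stands in gtCGCTg. In PCDHAC2 the letters stand in acCGCTc, and whether that match belongs to the conserved element was not tested. The PCDHAC2 window also holds a copy in ttCGCTg, farther from the start than 90 bases. Whether these letters bear on the level of the genes was not tested.

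The make-up of PCDHA differed between the groups. PCDHA12 held 32.1% and 28.4% of the PCDHA counts in the WT libraries and 9.32% and 5.56% in the HSF1-pLVX libraries, and it went from the highest share to rank 5. PCDHAC2 held 9.02%, 7.40%, 29.2% and 29.4%, with exact 95% binomial intervals of 6.65 to 11.9% and 5.08 to 10.3% in WT and 22.3 to 36.9% and 21.6 to 38.1% in HSF1-pLVX, and moved from rank 6 to the highest share. These intervals cover counting error only. PCDHA6 went from 11.3% to 19.7% of the cluster on average and became the second alpha member. Both C-type members together made up 19.6% and 17.7% of PCDHA in WT and 40.4% and 37.3% in HSF1-pLVX cells, a difference of 20.2 percentage points (exact permutation test, two-sided p = 0.333). In summed CPM the C-type members stood at 5.22, 3.98, 2.59 and 2.37 and the other alpha members at 21.4, 18.6, 3.82 and 3.98, so the C-type sum was 53.8% of WT and the sum of the rest 19.5%.

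The remaining 8 alpha genes (PCDHA2, PCDHA3, PCDHA5, PCDHA7, PCDHA8, PCDHA9, PCDHA13 and the pseudogene PCDHA14) had at most 9 counts in any library. PCDHA7 was the highest of them, with 8, 8, 6 and 9 counts. PCDHA14 had 0 counts everywhere, and all of its exon bases lie inside exons of PCDHA10, so reads from it could not be told from that gene. PCDHA13, directly downstream of PCDHA12, had 1, 1, 0 and 0 counts, so the strongest alpha gene in WT cells stood beside a member at the limit of detection.

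**Figure D2:**
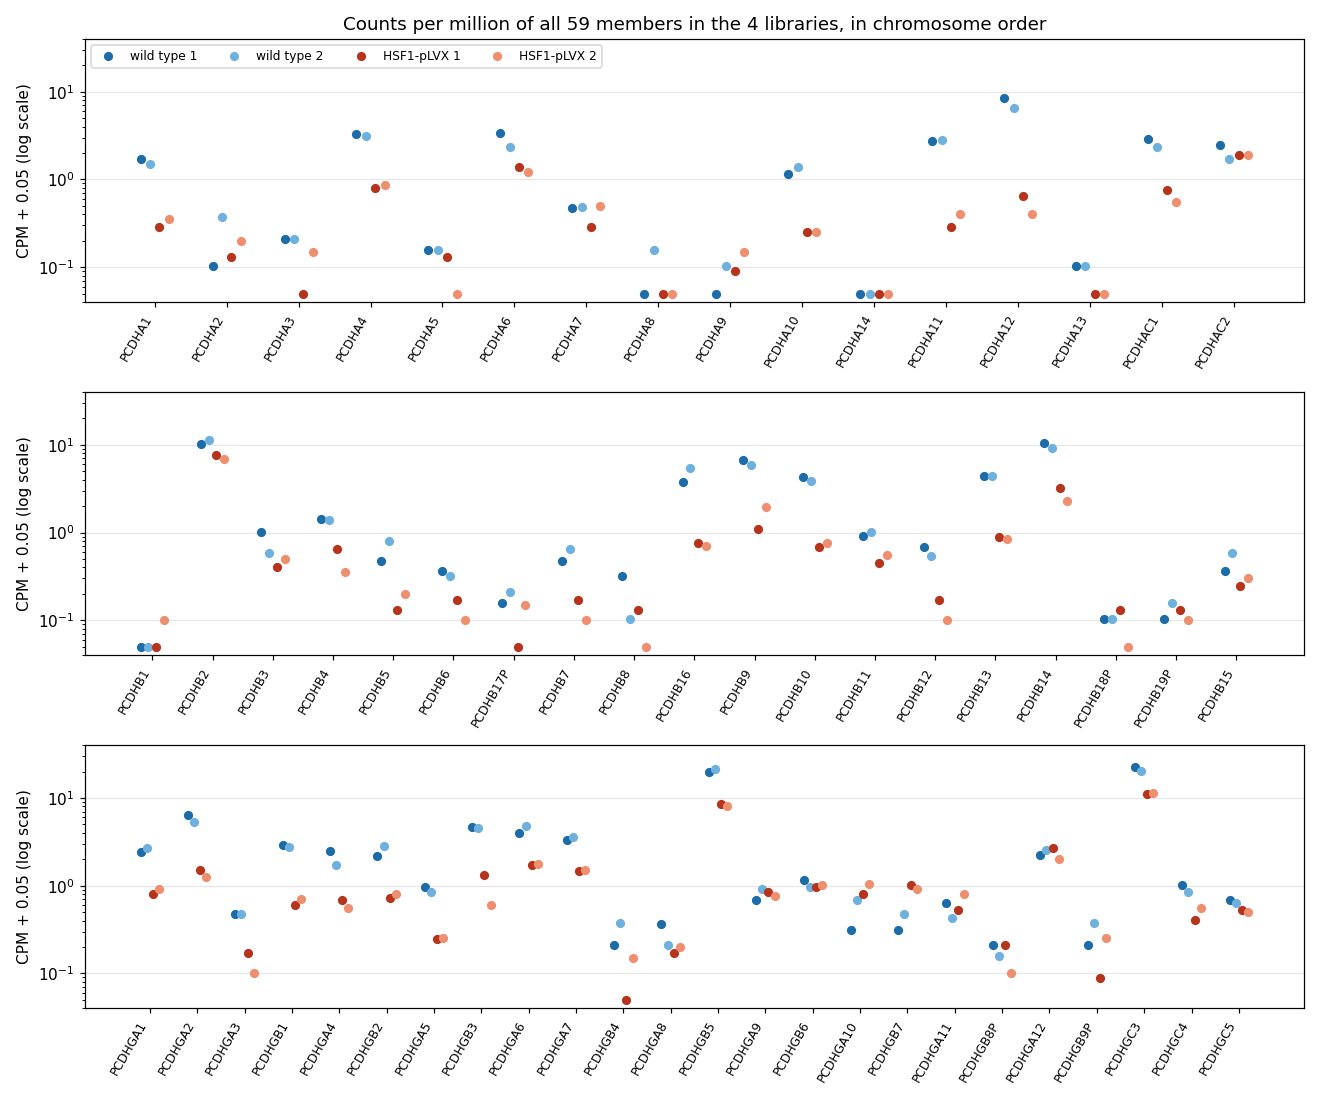
CPM plus 0.05 on a log axis for all 59 members in each of the 4 libraries, in chromosome order within PCDHA (top), PCDHB (middle) and PCDHG (bottom); each point is 1 library. WT points lie above HSF1-pLVX points for most members, and the 2 sets mix at PCDHAC2 and from PCDHGA9 to PCDHGA12, with PCDHGA10 and PCDHGB7 higher in HSF1-pLVX.

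PCDHB, whose genes are single variable exons without a shared tail, had 9 tested members, and 8 were lower. The change was smallest at the start of the row. PCDHB2 had 189, 211, 189 and 135 counts (10.1, 11.4, 7.53 and 6.80 CPM) and a log2 fold change of -0.58 (SE 0.145, adjusted p = 0.00283), and the call was lost without HSF1-pLVX replicate 2 (-0.50, adjusted p = 0.0603). PCDHB3 next to it had 18, 10, 9 and 9 counts and was not called (log2 fold change -0.89, SE 0.454, adjusted p = 0.0914). PCDHB4 had 26, 25, 15 and 6 counts and a log2 fold change of -1.55 (SE 0.400, adjusted p = 0.00264), which was -2.15 without HSF1-pLVX replicate 1 and -1.17, no longer called (adjusted p = 0.0559), without HSF1-pLVX replicate 2.

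Further along, the falls were larger. PCDHB16 had 69, 101, 18 and 13 counts, no overlap between groups, and a log2 fold change of -2.72 (SE 0.330, adjusted p = 2.45e-06). PCDHB9, the next gene, had 124, 108, 26 and 38 counts and a log2 fold change of -2.10 (SE 0.274), and PCDHB10 after it had 79, 71, 16 and 14 counts and -2.58 (SE 0.305). PCDHB13 had 81, 81, 21 and 16 counts and a log2 fold change of -2.39 (SE 0.284, adjusted p = 2.36e-06). PCDHB14, next to PCDHB2 the most counted beta member, had 194, 168, 79 and 45 counts and a log2 fold change of -1.82 (SE 0.199, adjusted p = 1.40e-06). PCDHB11, inside this stretch, was low at 16, 18, 10 and 10 counts, and its log2 fold change of -1.02 (SE 0.399, adjusted p = 0.0324) lost its call whichever library was left out (adjusted p from 0.0803 to 0.218) and by DESeq2 (adjusted p = 0.238). PCDHB3, PCDHB4, PCDHB10 and PCDHB11 are named for their position, a choice made after their values were seen.

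PCDHB2 held a larger part of the beta cluster in HSF1-pLVX cells. It held 22.4% and 24.9% of the PCDHB counts in WT (exact 95% intervals 19.6 to 25.3% and 22.0 to 27.9%) and 46.7% and 44.9% in HSF1-pLVX cells (41.7 to 51.7% and 39.1 to 50.7%). PCDHB14 held 23.0%, 19.8%, 19.5% and 15.0%, slightly more than PCDHB2 in WT replicate 1 and less in the other 3 libraries. Together these members made up 45.3% and 44.6% of PCDHB in WT and 66.2% and 59.8% in HSF1-pLVX cells. PCDHB16 went the other way, from 10.03 ± 2.64% (SD, n = 2) to 4.38 ± 0.0884% (SD, n = 2).

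Of the 10 untested PCDHB members, 7 are coding genes (PCDHB1, PCDHB5, PCDHB6, PCDHB7, PCDHB8, PCDHB12 and PCDHB15) and 3 are pseudogenes (PCDHB17P, PCDHB18P and PCDHB19P). PCDHB1, the outermost gene of the row, had a single count in the 4 libraries. PCDHB5 had 8, 14, 2 and 3 counts, PCDHB7 had 8, 11, 3 and 1, and PCDHB12 had 12, 9, 3 and 1. These members and PCDHGA3, with 8, 8, 3 and 1 counts, were also called lower when no filter on low counts was applied.

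PCDHG split into stretches along the chromosome. From PCDHGA1 to PCDHGB5, the first 13 genes of the row, all 10 tested members were lower, with log2 fold changes from -2.26 to -1.23 (median -1.81). In the next 8 genes, from PCDHGA9 to the pseudogene PCDHGB9P, 6 were tested, none was lower and PCDHGB7 was higher, with values from -0.12 to 1.37 (median 0.16). Beyond them, 2 of the 3 C-type genes were lower. The borders were placed after the values were seen, so this is a description of the row and no test of it, and only 4.9 kb separate the starts of PCDHGB5 and PCDHGA9.

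In the first stretch, PCDHGB5 was the strongest gene. It had 373, 391, 211 and 158 counts (19.9, 21.0, 8.41 and 7.95 CPM), the 2 WT libraries far above the others, and a log2 fold change of -1.32 (SE 0.120, adjusted p = 2.45e-07). PCDHGA2 had 120, 97, 37 and 24 counts and a log2 fold change of -2.10 (SE 0.249, adjusted p = 2.74e-06). PCDHGB3 had 87, 83, 32 and 11 counts, with the HSF1-pLVX libraries unlike each other and both below WT, and a log2 fold change of -2.26 (SE 0.328, adjusted p = 1.82e-05), which was -3.02 without HSF1-pLVX replicate 1 and -1.82 without HSF1-pLVX replicate 2. PCDHGA6 had 73, 88, 42 and 34 counts and a log2 fold change of -1.35 (SE 0.244). The other 6 tested members here (PCDHGA1, PCDHGB1, PCDHGA4, PCDHGB2, PCDHGA5 and PCDHGA7) lay between -2.20 and -1.23, and none of their groups overlapped. The A and B subfamilies alternate along the row and both were lower in it, so the change of level after PCDHGB5 did not follow the subfamily name. Untested in this stretch were PCDHGA3, PCDHGB4 and PCDHGA8, with at most 8 counts.

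The middle stretch began with PCDHGA9, which had 12, 16, 20 and 14 counts and a log2 fold change of 0.01 (SE 0.374, adjusted p = 0.984). PCDHGB6 had 21, 17, 23 and 19 counts (-0.12, SE 0.335) and PCDHGA11 had 11, 7, 12 and 15 (0.32, SE 0.454). In all 3 the libraries of the groups overlapped. PCDHGA12, the strongest gene of this stretch, had 41, 47, 67 and 39 counts, or 2.18, 2.53, 2.67 and 1.96 CPM, and a log2 fold change of -0.01 (SE 0.266, adjusted p = 0.970). PCDHGA10 had 5, 12, 19 and 20 counts, both HSF1-pLVX libraries above both WT libraries, but its log2 fold change of 0.93 (SE 0.460) was not called (adjusted p = 0.0811). Without WT replicate 2 it was (1.67, adjusted p = 0.0275). Apart from PCDHGB7, these genes are named for their position, a choice made after their values were seen.

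PCDHGB7 was the member called higher. It had 5, 8, 24 and 17 counts (0.266, 0.431, 0.956 and 0.856 CPM), with no overlap between groups, and a log2 fold change of 1.37 (SE 0.450, adjusted p = 0.0107). These are few counts, and the call depended on single libraries. The adjusted p was 0.112 without WT replicate 1, 0.0859 without HSF1-pLVX replicate 1 and 0.0637 without HSF1-pLVX replicate 2, and it was 0.137 by DESeq2. PCDHGB7 differs from PCDHGB6, the other coding B gene of this stretch, in the core letters of the promoter element. Over 60 aligned bases of the reference, 56 are identical, and position 32, counted from 1 at the 5′ end, has the substitution T32C from PCDHGB6 to PCDHGB7. The capitals mark the core of PCDHGB6 and the aligned letters of PCDHGB7.
PCDHGB6, chr5:141407912-141407971: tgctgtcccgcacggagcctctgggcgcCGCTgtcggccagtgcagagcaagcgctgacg
PCDHGB7, chr5:141417571-141417630: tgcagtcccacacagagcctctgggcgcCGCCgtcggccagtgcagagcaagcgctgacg
A second CGCT stands downstream in both stretches, and whether either copy bears on the level of these genes was not tested.

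The C-type genes closed the row. PCDHGC3 had 419, 379, 275 and 224 counts (22.3, 20.4, 10.95 and 11.28 CPM), with WT clearly above HSF1-pLVX, and a log2 fold change of -0.94 (SE 0.114, adjusted p = 4.72e-06). PCDHGC4 had 18, 15, 9 and 10 counts and a log2 fold change of -1.05 (SE 0.412, adjusted p = 0.0328), a call that no fit with a library left out kept (adjusted p from 0.0718 to 0.246) and that DESeq2 did not make (adjusted p = 0.237). PCDHGC5, the last gene of the clusters, had 12, 11, 12 and 9 counts, or 0.639, 0.592, 0.478 and 0.453 CPM. Both HSF1-pLVX libraries lay below both WT libraries, but its log2 fold change of -0.40 (SE 0.417) did not pass the test (adjusted p = 0.421).

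**Figure D3:**
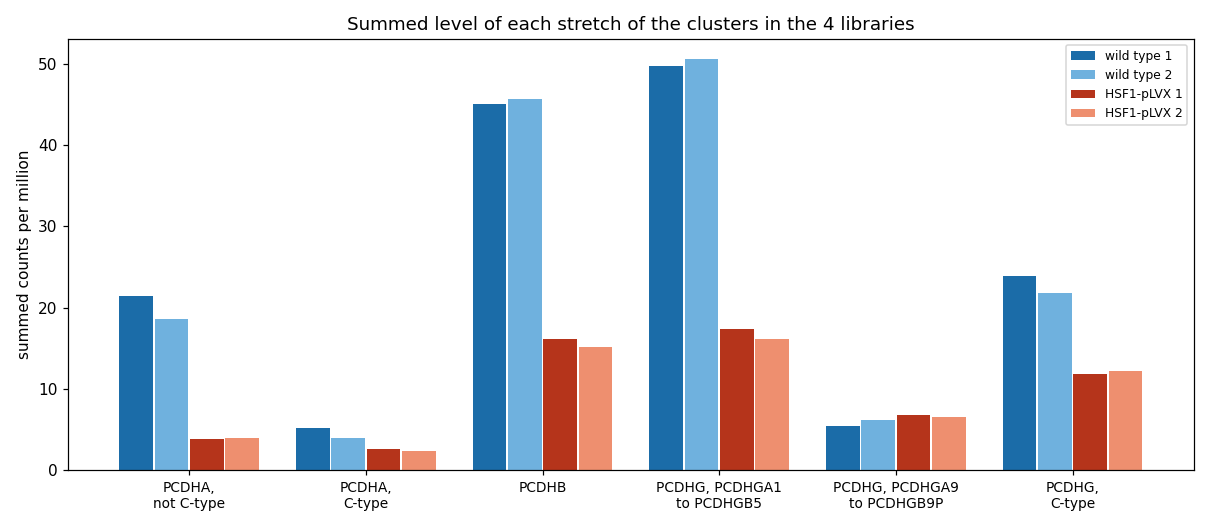
Summed CPM (vertical axis) of the members of each stretch of the clusters, with 1 bar per library. The PCDHG stretch from PCDHGA9 to PCDHGB9P stands at 5.38, 6.19, 6.77 and 6.49 CPM, while the bars of the other 5 groups are lower in both HSF1-pLVX libraries.

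Summed by stretch, PCDHG up to PCDHGB5 stood at 49.7, 50.5, 17.3 and 16.2 CPM (33.4% of WT), the genes from PCDHGA9 to PCDHGB9P at 5.38, 6.19, 6.77 and 6.49 CPM (114.7% of WT), and the C-type genes at 23.9, 21.8, 11.8 and 12.2 CPM (52.6% of WT). The middle stretch was slightly higher in both HSF1-pLVX libraries than in both WT libraries, and the stretches on either side were lower in both. For the middle stretch the closest libraries were WT replicate 2 with 115 counts and HSF1-pLVX replicate 2 with 129, so this rise is small. As shares of the PCDHG counts, the first stretch went from 62.9% and 64.4% to 48.3% and 46.3%, and the middle from 6.81% and 7.88% (exact 95% intervals 5.58 to 8.21% and 6.55 to 9.39%) to 18.9% and 18.6% (16.4 to 21.6% and 15.8 to 21.7%). The intervals cover counting error only. The border between the first and middle stretch was placed after the values were seen, so their differences are a description and no test. PCDHG C-type genes made up 30.3%, 27.8%, 32.9% and 35.1%, a difference of 4.94 percentage points, against 20.2 points in PCDHA (exact permutation test, two-sided p = 0.333 for each).

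The leading PCDHG members were the same in both groups. PCDHGC3 and PCDHGB5 had the highest shares in every library, PCDHGB5 ahead in WT replicate 2 and PCDHGC3 in the other 3, and together they held 53.4%, 52.8%, 53.9% and 55.1% of the cluster. PCDHGC3 alone went from 27.12 ± 1.605% to 31.4 ± 1.27% (SD, n = 2 each) and PCDHGB5 from 25.98 ± 1.17% to 23.1 ± 0.438% (SD, n = 2 each). PCDHGA2 moved from rank 3 in WT with 7.37% to rank 6 in HSF1-pLVX cells with 3.79%, and PCDHGA12 moved from rank 10 with 2.99% to rank 3 with 6.53%.

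**Figure D4:**
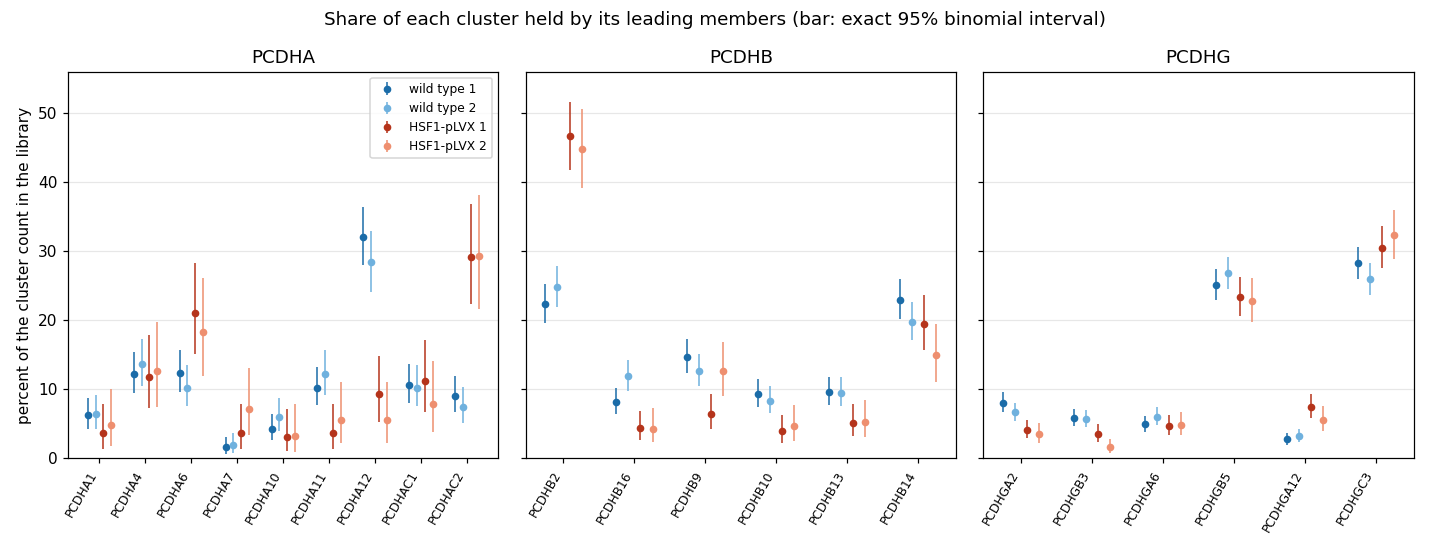
Percent of the counts of PCDHA, PCDHB and PCDHG (vertical axis) held by each member with a mean share of at least 5% in either group; each point is 1 library and bars are exact 95% binomial intervals. PCDHA12 stands at 30.2% in WT and 7.44% in HSF1-pLVX on average, PCDHAC2 at 8.21% and 29.3%, and PCDHB2 at 23.6% and 45.8%, while PCDHGB5 (25.98% and 23.1%) and PCDHGC3 (27.12% and 31.4%) lie closer together.

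Taken over the whole family, 3 of the 5 C-type members were lower, with a median log2 fold change of -0.94, and 24 of the 31 tested members that are neither C-type nor pseudogenes were lower, with a median of -1.78. The range of the C-type members, from -2.04 to -0.12, lay inside that of the others. None of the 6 pseudogenes had enough counts to be tested. The last C-type gene of each cluster, PCDHAC2 and PCDHGC5, was not called. The groups of PCDHAC2 overlapped, while both HSF1-pLVX libraries of PCDHGC5 lay below both WT libraries. PCDHGC5 had at most 12 counts. Its -0.40 (SE 0.417) was not clearly apart from the -0.12 (SE 0.280) of PCDHAC2 or the -1.05 (SE 0.412) of PCDHGC4.

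Levels were compared between genes as CPM per kb of exon bases that no other listed gene covers. In WT cells the highest level was that of PCDHGB5 (7.66 ± 0.311), followed by PCDHGC3 (6.57 ± 0.418), PCDHA12 (3.71 ± 0.745), PCDHB2 (3.06 ± 0.260) and PCDHB14 (2.08 ± 0.196), each as SD with n = 2. PCDHA12 and PCDHB2 differed by less than the SD of PCDHA12, and the other steps were larger than the SDs on either side. Above 1 CPM per kb were 12 members. In HSF1-pLVX cells 3 remained above it, PCDHGC3 (3.42 ± 0.0699), PCDHGB5 (3.06 ± 0.120) and PCDHB2 (2.04 ± 0.148), so PCDHGC3 and PCDHGB5 changed places. PCDHGA12 came next at 0.879 ± 0.189 and PCDHAC2 at 0.584 ± 0.00214, ahead of PCDHB14 at 0.581 ± 0.134, from which it could not be separated. PCDHA12 was at 0.236 ± 0.0862. This order depended on the length used, since members differ in the part of their exons that is their own. Per kb of all exon bases, PCDHA12 stood at 1.37 ± 0.275 in WT, below PCDHB2 (2.60 ± 0.221), PCDHB14 (2.01 ± 0.189) and PCDHB9 (1.41 ± 0.127), and in HSF1-pLVX cells PCDHAC2 (0.2955 ± 0.00108) stood below PCDHB14 (0.5605 ± 0.129). PCDHGB5 and PCDHGC3 were the highest of all in WT by either length, and PCDHGC3 in HSF1-pLVX cells.

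CGCT stood in most member windows, so its presence could not tell called from uncalled members apart. It stood 30 to 90 bases before the start in 24 of the 26 windows of members that were lower. The same held for 6 of the 6 windows of tested members that were not called and 11 of the 14 windows of untested members. PCDHGA12 and PCDHGC5, also not called, had no window. In PCDHGB7 the match is the downstream copy, and the letters aligned to the core of PCDHGB6 are CGCC. The search here was for the letters CGCT alone, not for the wider element. The pattern of a heat shock element, searched on both strands as GAA, TTC and GAA with any 2 bases between them, occurred in 1 of the 47 windows, that of PCDHGA4 (2.13%, against 0.489% of all promoter windows). TATAA on either strand occurred in 36.2% of the member windows and 20.5% of all. The median GC content of the member windows was 39.7%, against 58.7% over all windows.

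Genes around the clusters moved in both directions. Within 500 kb of the clusters or between them, 28 genes that are no members were tested, 10 were lower and 10 higher, with a median log2 fold change of 0.04. Among all tested genes, 33.2% were lower and 32.7% higher. TAF7, a subunit of the general transcription factor TFIID that lies between PCDHB and PCDHG on the opposite strand, stood at 144.4, 146.5, 87.2 and 85.7 CPM and fell by 0.75 on the log2 scale. CD14, before the clusters, showed the largest change (1.17, 0.538, 58.6 and 83.2 CPM, log2 fold change 6.36, adjusted p = 4.54e-11), and EIF4EBP3 (2.77), TMCO6 (1.90) and APBB3 (1.56) on the same side also rose. The largest fall among these neighbours was that of PCDH1 (-1.44), after the clusters. Of the 17 tested genes before the clusters 5 were lower and 6 higher, and of the 10 after them 4 were lower and 4 higher. Whether the neighbours share in the falls of the members was not tested.

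Of 12 protocadherins outside the clusters, 3 were tested and 2 of these were lower. The shares over all tested genes were 33.2% lower and 32.7% higher. PCDH1 and PCDH12 lie within 500 kb after the clusters and are also counted among the neighbours above. PCDH7 (161.6, 135.8, 42.5 and 41.3 CPM, log2 fold change -1.83) and PCDH1 (584.4, 517.0, 207.6 and 197.5 CPM, -1.44) were lower, and PCDH12 was not called (0.64, adjusted p = 0.0755).

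Among the factors known to act on clustered protocadherin promoters, CTCF, which binds at them, was not called (51.1, 50.3, 46.4 and 45.9 CPM, log2 fold change -0.14, adjusted p = 0.164). Of the 11 genes for CTCF, cohesin and its loaders or releasers, none was lower and 6 were higher, among them the cohesin subunits SMC3 (0.81), STAG2 (0.56) and SMC1A (0.48) and the cohesin regulator PDS5B (0.81). Among all tested genes, for comparison with this list and the next, 32.7% were higher and 33.2% lower. Of 14 tested genes for DNA methylation and silencing factors, 7 were higher and 3 lower, with a median of 0.22. The higher genes included HELLS, a chromatin remodeler needed for DNA methylation (7.67, 8.83, 49.3 and 45.0 CPM, log2 fold change 2.52), UHRF1, which recruits the maintenance methyltransferase (1.66), DNMT1, that enzyme itself (1.24), and DNMT3B, a de novo methyltransferase (1.09). Their part in the protocadherin values was not tested.

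Of 11 tested cytoplasmic partners, kinases and actin regulators that bind or act below the protocadherin tails, 4 were higher and 3 lower. These counts lie near the shares over all tested genes, 32.7% higher and 33.2% lower. The median log2 fold change of the list was -0.06. PTK2B, of the focal adhesion kinase family, stood at 85.7, 87.1, 217.6 and 234.8 CPM (log2 fold change 1.39), while its relative PTK2 was lower (-0.37). Of the WAVE complex, which drives actin branching, WASF1 (1.04) and CYFIP2 (0.47) were higher, NCKAP1 (-0.36) and ABI1 (-0.34) were lower, and CYFIP1 (0.07) and BRK1 (-0.11) were not called. The kinase PRKCA was higher (0.79). PTK2, NCKAP1, ABI1, CYFIP1 and BRK1 were chosen for naming after their values were seen.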

How the data were processed

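RNA was isolated from 2 WT and 2 HSF1-pLVX samples and sequenced as paired reads of 76 bases after depletion of ribosomal RNA. The authors aligned the reads to hg38 (GENCODE 26) and deposited whole-number counts per gene, with HISAT2 2.0.5, SAMtools 1.13, featureCounts 1.6.5 and DESeq2 1.32.0 named in the submitters' processing notes. The settings for strand, overlapping genes and reads with several matches are not given in the sources used here. A further deposited table of DESeq2-normalized log2-like values was not used.

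Symbols were assigned to 41805 of the 63856 identifiers. An antisense RNA whose symbol starts like a member's was left out (0 counts). Counts were compared between groups with edgeR 4.0.16 (R 4.3.3; TMM, filterByExpr defaults, quasi-likelihood test, group as the only term), with Benjamini-Hochberg adjustment over 15830 genes and calls at 0.05. The test was tried on simulated counts. TMM factors ran from 0.9635 to 1.0398, and the common biological coefficient of variation was 0.0738. Counts of replicates differed by more than sampling noise (chi-square per degree of freedom 6.99 in WT and 8.91 in HSF1-pLVX). A floor of 3 counts corresponds to 0.12 to 0.16 CPM. Replicate numbers recur in both groups, but nothing says that they mark a shared culture, so no pairing was used in the main fit. Deviations from the group means correlated at -0.015 between libraries of the same number. With 2 libraries per group this value cannot show whether cultures were shared.

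Alternatives covered normalization, the filter, DESeq2 1.42.0, a replicate block, a fold limit, coding members only, other lengths and each library left out. Members named with full values were all C-type genes, the 2 largest shares of each cluster in each group, the members called higher and, per cluster, the 3 most abundant other members called lower. In the other lists, up to 4 called genes with the largest changes were named. Some others, such as KRT5, CDH1 and CTCF, were named outside this rule. The members and lists were chosen with earlier results of these data known. Exon lengths and biotypes came from the count table and GENCODE v44, and promoter sequences from RefSeq. The members PCDHA3, PCDHA14, PCDHA13, PCDHB6, PCDHB17P, PCDHB11, PCDHB18P, PCDHB19P, PCDHGB8P, PCDHGA12, PCDHGB9P and PCDHGC5 had no promoter window.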

Additional observations from a re-analysis of the deposited data

How the results depend on the processing

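The count of 27 members called lower stayed between 24 and 31 under all alternatives: 27 with RLE size factors, with library size only and among coding members, 31 without the filter, 25 with DESeq2 and between 24 and 27 with a library left out. The single member called higher became 0 with DESeq2 and ranged from 0 to 2 with a library left out. No member that was called changed its sign. Among members that were not called, values near 0 did: with a library left out, PCDHAC2 ranged from -0.38 to 0.18, PCDHGA9 from -0.18 to 0.22, PCDHGB6 from -0.27 to 0.04, PCDHGA11 from 0.00, just below zero, to 0.69 and PCDHGA12 from -0.26 to 0.19. PCDHGA9 was also just below zero with RLE size factors (0.00) and -0.01 with DESeq2, and PCDHGA12 was 0.05 with library size only. With the replicate block 27 members were lower and 1 was higher, and the call was the same for all 36 tested members, with infinite prior degrees of freedom against 11.9 without the block. The log2 ratio of the PCDHA sum ranged from -2.06 to -1.82 with a library left out. The smallest fall, -1.82, was found without WT replicate 1. With library size only, the ratio was -1.48 for PCDHB and -1.09 for PCDHG, and scaling does not enter the shares. Without a WT or HSF1-pLVX library the PCDHG C-type difference ranged from 3.68 to 6.20 percentage points. On all exon bases instead of own bases, 7 members passed 1 CPM per kb in WT instead of 12. The 10 tested members from PCDHGA1 to PCDHGB5 kept their call under each alternative. Depth limits the 23 untested members and those under about 20 counts, among them PCDHB11, PCDHGC4, PCDHGA10 and PCDHGB7.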
